A study of Drosophila melanogaster with 4 samples.

Results

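The Dpp pathway of the wing imaginal disc was examined through 10 genes of the 13990 in the FPKM table, taken by symbol. They were the ligand genes dpp and gbb, the receptor gene tkv, the Smad genes Mad and Dad, the repressor gene brk, the target genes bi, salm and salr, and the glypican gene dally. FPKM is fragments per kilobase of transcript scaled to sequencing depth, so levels can be set side by side between genes. RNA came from wing discs of wandering third-instar Drosophila larvae kept at 25 °C, with 80 to 100 discs pooled per genotype and 1 library made from each pool. All 4 genotypes carried GFP and were labelled en, the engrailed driver, which acts in the posterior compartment, and a library therefore holds RNA of posterior cells with the transgenes and of anterior cells without them. The groups were enGFP+Yki+Tai (Yki+Tai below), which adds the Hippo coactivator Yorkie and the ecdysone receptor coactivator Taiman, enGFP+Yki+Tai-IR (Yki+Tai-IR), which adds Yorkie and an inverted repeat aimed at tai, enGFP+Yki (Yki), which adds Yorkie, and enGFP (GFP), which adds neither.

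Dpp is the fly homologue of vertebrate BMP2 and BMP4. In the wing disc it is made in anterior cells along the compartment boundary, where Hedgehog from posterior cells reaches them, and it spreads to both sides as a gradient. Dpp and its partner Gbb bind receptors with the type I subunit Thickveins, which phosphorylates the Smad protein Mad. Phosphorylated Mad shuts off brk, whose product Brinker represses the Dpp targets Dad, bi, salm and salr. The pathway sets wing size and the position of veins.

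None of the 10 genes differed by 2-fold in any of the 4 comparisons. From lowest to highest library, the widest spans were in brk, which was highest in Yki+Tai, and in bi, which was highest in GFP. The 4 genes brk, dally, tkv and Mad stood in the same order over the libraries, highest in Yki+Tai, then Yki, then Yki+Tai-IR, and lowest in GFP, though in tkv and Mad the lowest pair could not be separated by counting. Dad stood in the reverse order. The ligand gene dpp was nearly level. With 1 library per genotype there is no replicate check and no p-value, so the values describe these libraries. Ratios carry a 95% exact binomial interval on estimated fragments, which covers counting error only and leaves out any variation between pools of discs.

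Facts of the libraries that touch these genes come first. Depth, as judged by the step size of low FPKM values, was 12.6 M fragments in Yki+Tai, 8.36 M in Yki+Tai-IR, 9.62 M in Yki and 8.11 M in GFP, and the members rested on 527 to 10476 fragments each. Signal for yki was 4535 FPKM in Yki+Tai, 2563 in Yki+Tai-IR, 5034 in Yki and 71.5 in GFP. For tai it was 1260.3 FPKM in Yki+Tai, 22.9 in Yki+Tai-IR, 25.0 in Yki and 27.1 in GFP, so Yki+Tai-IR held 0.916 times the tai signal of Yki (0.856 to 0.98). The wing markers vg, nub, ap, rn and zfh2 were all present, with summed levels of 288 to 395 FPKM. The sum of the posterior genes en, inv and hh was 195 FPKM in Yki+Tai, 94.3 in Yki+Tai-IR, 108 in Yki and 122 in GFP, and that of the anterior genes ci, ptc and kn was 73.7 FPKM in Yki+Tai, 139 in Yki+Tai-IR, 118 in Yki and 189 in GFP. Markers of the leg disc, a neighbouring tissue that also uses Dpp, summed over 7 genes to 39.5 FPKM in Yki+Tai, 128 in Yki+Tai-IR, 4.09 in Yki and 164 in GFP, and in Yki fd96Ca and fd96Cb were listed at 0. Markers of the myoblasts under the disc summed over 6 genes to 34.1 FPKM in Yki+Tai, 63.3 in Yki+Tai-IR, 45.8 in Yki and 98.1 in GFP. In such whole-disc RNA, fewer cells of a type and less RNA per cell cannot be told apart.

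**Figure D1:**
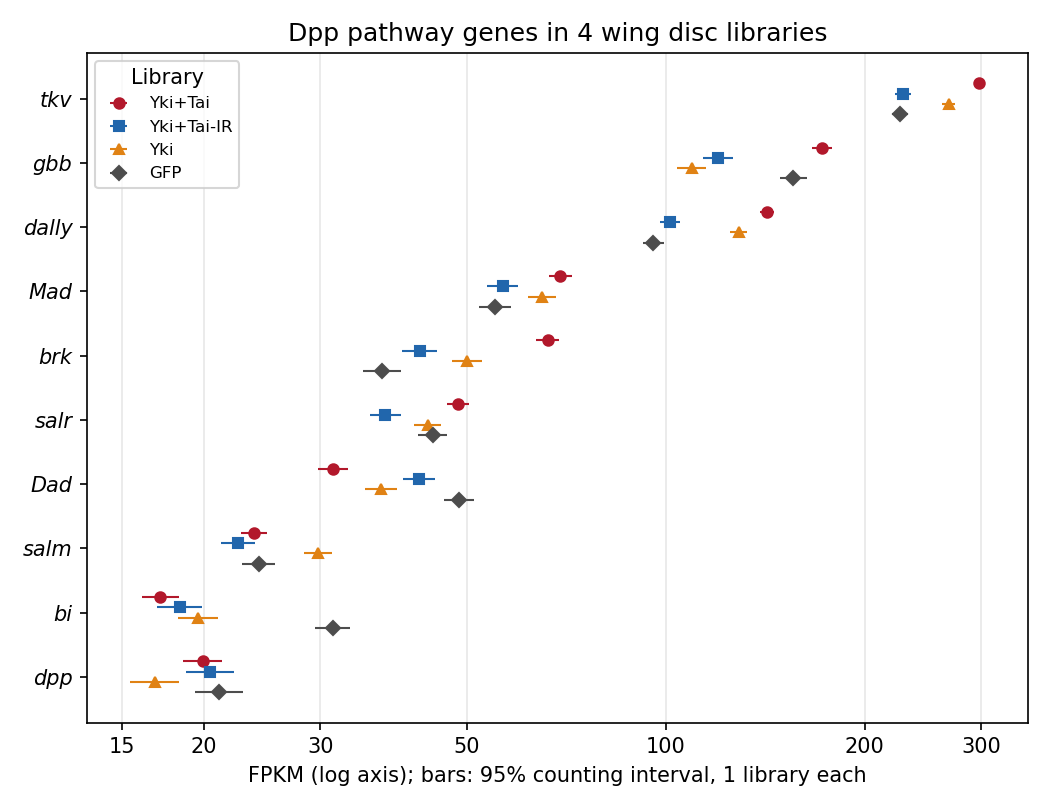
FPKM of each of the 10 genes (rows, ordered by mean level) in the 4 libraries, on a log axis. Points are single libraries and bars are 95% counting intervals. In brk, dally, tkv, Mad, gbb and salr the Yki+Tai point lies furthest right, in bi the GFP point lies apart from the other 3 libraries, and dpp spans only 16.9 to 21.1 FPKM.

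The ligand genes behaved unlike each other. The gene dpp (FBgn0000490, chromosome 2L, 2428372 to 2459823 in dm6) had 19.9 FPKM in Yki+Tai, 20.5 in Yki+Tai-IR, 16.9 in Yki and 21.1 in GFP. The Yki library was the low one and the other 3 could not be separated by counting. Its ratio was 1.18 (1.06 to 1.32) for Yki+Tai over Yki, 1.21 (1.08 to 1.37) for Yki+Tai-IR over Yki, and 0.799 (0.708 to 0.902) for Yki over GFP. Set against Yki+Tai-IR, Yki+Tai stood at 0.974 times (0.873 to 1.09), an interval that holds 1. The leg disc markers were also lowest in Yki; their part in the dpp value was not tested.

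The second ligand gene, gbb, encodes a BMP family member made broadly in the disc (FBgn0024234, chromosome 2R, 23851562 to 23853247). It had 173 FPKM in Yki+Tai, 120.0 in Yki+Tai-IR, 109 in Yki and 156 in GFP. Yki+Tai and GFP were the high libraries, and Yki and Yki+Tai-IR the low ones. At 1.58 (1.48 to 1.68), the ratio of Yki+Tai to Yki was the largest of the 10 genes in that comparison. The ratio was 1.44 (1.35 to 1.53) for Yki+Tai over Yki+Tai-IR and 0.702 (0.655 to 0.752) for Yki over GFP. Within a library, dpp stood at 0.115 times gbb in Yki+Tai (0.107 to 0.125), 0.170 times in Yki+Tai-IR, 0.154 times in Yki and 0.135 times in GFP (0.123 to 0.149), so gbb was the more abundant ligand transcript in all 4 libraries.

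The receptor gene tkv (FBgn0003716, chromosome 2L, 5219000 to 5271384) had the highest level of the 10 genes in every library. It had 298 FPKM in Yki+Tai, 229 in Yki+Tai-IR, 268 in Yki and 226 in GFP. Yki+Tai and Yki lay above the other pair, and Yki+Tai-IR and GFP could not be separated, with a ratio of 1.01 (0.973 to 1.05). Its ratio was 1.11 (1.08 to 1.15) for Yki+Tai over Yki, 0.853 (0.823 to 0.884) for Yki+Tai-IR over Yki, and 1.18 (1.14 to 1.23) for Yki over GFP. Annotated exons of tkv share 212 bases with TpnC25D and a pseudogene on the other strand, and TpnC25D itself was at 0.287 FPKM or less. The gene put, which encodes the type II subunit that acts with Thickveins, was flatter, at 78.4 FPKM in Yki+Tai, 72.4 in Yki+Tai-IR, 78.0 in Yki and 69.3 in GFP.

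Mad (FBgn0011648, chromosome 2L, 3146056 to 3159643), the Smad that carries the signal to the nucleus, varied little. It had 69.3 FPKM in Yki+Tai, 56.6 in Yki+Tai-IR, 64.9 in Yki and 55.1 in GFP. The order was that of tkv, and again Yki+Tai-IR and GFP could not be separated (1.03, 0.949 to 1.11). The ratio of Yki+Tai to Yki was 1.07, with an interval that only just leaves out 1. Transcript level does not measure the phosphorylated Mad that reports signalling.

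The repressor gene brk lies opposite Dpp in the pathway: its transcription is shut off where signalling is high, and it is expressed at the lateral edges of the disc. It has a single annotated transcript (FBgn0024250, chromosome X, 7307939 to 7311132). It had 66.3 FPKM in Yki+Tai, 42.4 in Yki+Tai-IR, 50.04 in Yki and 37.2 in GFP. The libraries were all separated by counting, with Yki+Tai well above the rest. The ratio was 1.34 (1.23 to 1.46) for Yki over GFP, 1.32 (1.24 to 1.41) for Yki+Tai over Yki, and 0.848 (0.782 to 0.919) for Yki+Tai-IR over Yki. It reached 1.56 (1.45 to 1.68) for Yki+Tai over Yki+Tai-IR and 1.78 (1.65 to 1.92) for Yki+Tai over GFP, which was the largest ratio above 1 of any member in the 4 comparisons or against GFP.

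Dad (FBgn0020493, chromosome 3R, 17054007 to 17070408) encodes the inhibitory Smad, a direct target that Brinker represses and that feeds back on the receptor. It had 31.4 FPKM in Yki+Tai, 42.3 in Yki+Tai-IR, 37.1 in Yki and 48.6 in GFP. Its order was the exact reverse of that of brk. The ratio was 0.763 (0.707 to 0.825) for Yki over GFP, 0.845 (0.782 to 0.912) for Yki+Tai over Yki, 1.14 (1.05 to 1.23) for Yki+Tai-IR over Yki, and 0.742 (0.687 to 0.801) for Yki+Tai over Yki+Tai-IR. The anterior genes ci and ptc stood in the same order as Dad, although Yki+Tai and Yki could not be separated by counting in ptc. Levels of ci were 29.8 FPKM in Yki+Tai, 103 in Yki+Tai-IR, 81.3 in Yki and 128 in GFP. The anterior gene kn stood in another order, at 24.1 FPKM in Yki+Tai, 3.34 in Yki+Tai-IR, 15.03 in Yki and 7.49 in GFP. The sum of the myoblast markers kept the order of Dad, as did twi, Him, htl and stumps singly, but not zfh1 and Mef2. The part of these genes in the Dad and brk values was not tested.

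Because both genes are read from the same library, the level of brk over that of Dad is free of any scaling between libraries. This pair was chosen after its values were seen. The quotient was 2.11 (1.98 to 2.26) in Yki+Tai, 1.00 (0.924 to 1.09) in Yki+Tai-IR, 1.35 (1.25 to 1.46) in Yki and 0.766 (0.704 to 0.834) in GFP. No interval overlapped another. Another quotient was en over ci, a posterior gene over an anterior one. It was 2.12 (1.99 to 2.26) in Yki+Tai, 0.231 (0.21 to 0.254) in Yki+Tai-IR, 0.401 (0.371 to 0.434) in Yki and 0.338 (0.314 to 0.364) in GFP. This quotient was highest in Yki+Tai and lowest in Yki+Tai-IR. Its order rests on ci. The anterior gene kn was highest in Yki+Tai, at 24.1 FPKM, and lowest in Yki+Tai-IR, at 3.34. With kn in place of ci, Yki+Tai would not be the highest library. The posterior genes inv and hh, set over ci, were also highest in Yki+Tai but lowest in GFP, the order of brk over Dad. FPKM of inv was 81.8 in Yki+Tai, 35.8 in Yki+Tai-IR, 37.2 in Yki and 39.0 in GFP. That of hh was 50.4 in Yki+Tai, 34.6 in Yki+Tai-IR, 37.8 in Yki and 39.8 in GFP. The part of the compartments' shares in the quotient of brk over Dad was not tested.

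**Figure D2:**
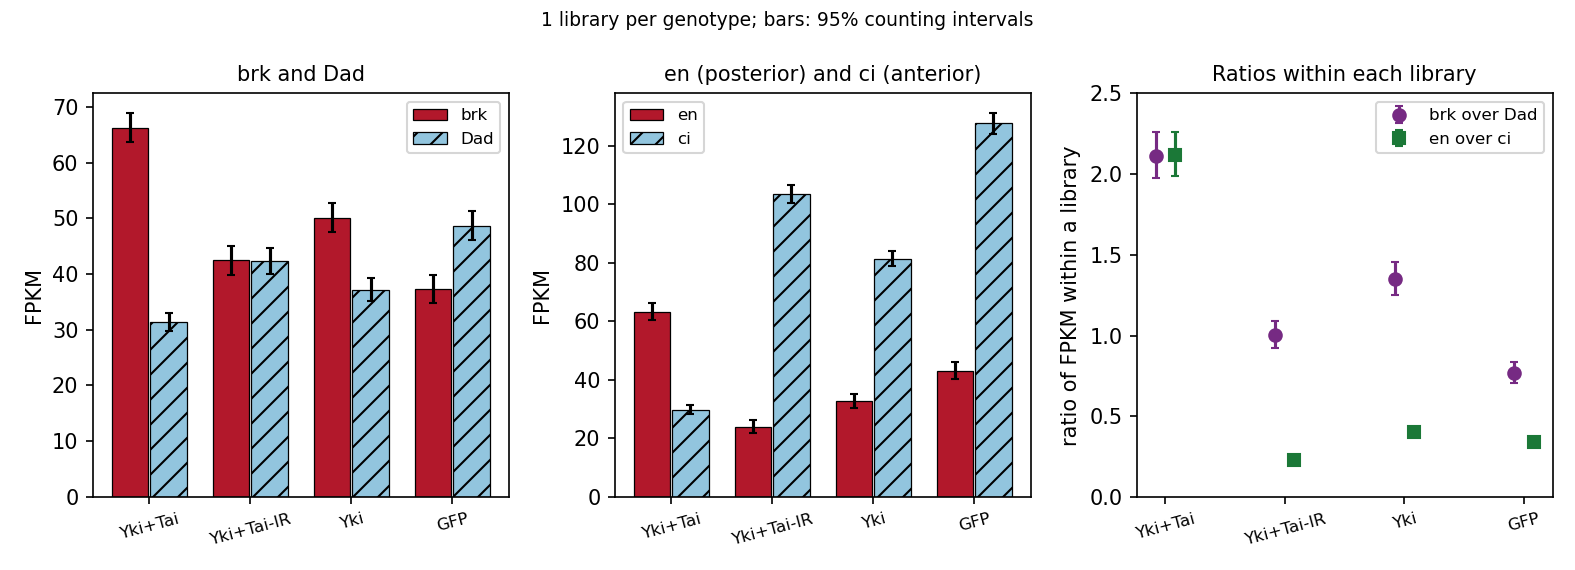
Left and middle: FPKM of brk and Dad, and of the posterior gene en and the anterior gene ci, in each library, with bars from 0. Right: brk over Dad and en over ci within each library; error bars in all panels are 95% counting intervals. Both quotients are highest in Yki+Tai (2.11 and 2.12), and in the other 3 libraries brk over Dad ranges from 0.766 to 1.35 and en over ci from 0.231 to 0.401.

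The target genes stood in different orders. The gene bi encodes Optomotor-blind, a T-box factor of the central wing (FBgn0000179, chromosome X, 4412856 to 4485647). It had 17.2 FPKM in Yki+Tai, 18.4 in Yki+Tai-IR, 19.6 in Yki and 31.3 in GFP. GFP stood above the other 3, with ratios of 0.549 (0.502 to 0.6) for Yki+Tai, 0.586 (0.531 to 0.647) for Yki+Tai-IR and 0.626 (0.57 to 0.687) for Yki over GFP. Among the libraries with Yki the differences were small, at 0.876 (0.796 to 0.965) for Yki+Tai over Yki and 0.936 (0.843 to 1.04) for Yki+Tai-IR over Yki. Leg disc markers were at 0.2399 times GFP in Yki+Tai, 0.779 times in Yki+Tai-IR and 0.0249 times in Yki, and myoblast markers at 0.348 to 0.645 times GFP in the 3 libraries. The part of both in the bi value was not tested.

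The neighbouring genes salm and salr encode zinc-finger factors of the Spalt family that act in the wing pouch. They lie 60.7 kb apart on chromosome 2L, salm (FBgn0261648) at 11434311 to 11445614 and salr (FBgn0000287) at 11358873 to 11373636. The gene salm had 23.8 FPKM in Yki+Tai, 22.5 in Yki+Tai-IR, 29.8 in Yki and 24.2 in GFP. Yki was the high library and the other 3 could not be separated. Its ratio was 0.80 (0.748 to 0.856) for Yki+Tai over Yki, 0.756 (0.700 to 0.816) for Yki+Tai-IR over Yki and 1.23 (1.14 to 1.33) for Yki over GFP. The gene salr had 48.5 FPKM in Yki+Tai, 37.6 in Yki+Tai-IR, 43.6 in Yki and 44.4 in GFP. Here Yki and GFP could not be separated (0.983, 0.918 to 1.05), Yki+Tai was the high library and Yki+Tai-IR the low one. Within a library salm stood at 0.491 times salr in Yki+Tai (0.462 to 0.522), 0.598 in Yki+Tai-IR, 0.682 in Yki (0.638 to 0.730) and 0.545 in GFP.

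The glypican gene dally (FBgn0263930, chromosome 3L, 8827505 to 8891192) encodes a cell-surface heparan sulfate proteoglycan that holds Dpp at the cell surface and shapes its gradient. It had 142 FPKM in Yki+Tai, 101 in Yki+Tai-IR, 129 in Yki and 95.8 in GFP. The order was that of brk, tkv and Mad. Its ratio was 1.35 (1.28 to 1.41) for Yki over GFP, 1.11 (1.06 to 1.15) for Yki+Tai over Yki, 0.787 (0.752 to 0.824) for Yki+Tai-IR over Yki and 1.4 (1.35 to 1.46) for Yki+Tai over Yki+Tai-IR. The second glypican gene, dlp, stood below it, at 69.1 FPKM in Yki+Tai, 48.9 in Yki+Tai-IR, 56.5 in Yki and 50.3 in GFP, so that dally over dlp stayed between 1.90 and 2.28.

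**Figure D3:**
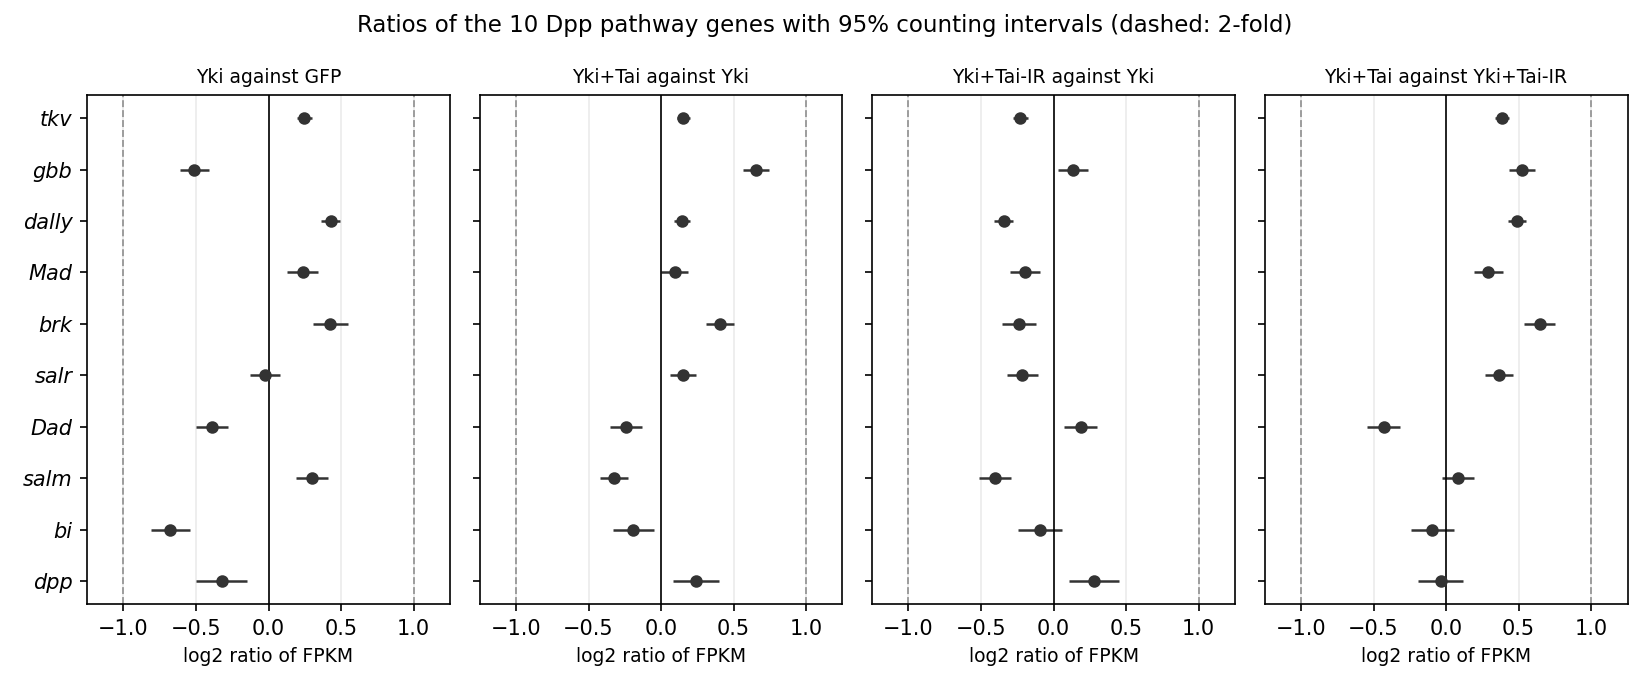
Log2 ratio of FPKM for each of the 10 genes in the 4 comparisons, with 95% counting intervals. Dashed lines mark 2-fold, which no gene reached. In the comparison of Yki+Tai-IR with Yki most points lie left of 0, and in that of Yki+Tai with Yki+Tai-IR most lie right of it.

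Read against all genes, the 10 did not stand out in size. The filter was a mean of at least 1 FPKM, which 7806 genes passed, all 10 members among them, and a gene was called at a difference of at least 1 in log2(FPKM + 1). In Yki against GFP 0 of 10 were called, against 4.91% of all genes. In Yki+Tai against Yki 0 were called, against 5.55%, in Yki+Tai-IR against Yki 0, against 4.11%, and in Yki+Tai against Yki+Tai-IR 0, against 8.15%. Over the 4 libraries 5 of the 10 spanned more than the median gene, whose highest value was 1.35 times its lowest on this scale. The span was 1.78-fold in bi and 1.76-fold in brk, above that of 80.8% and 80.2% of all genes, and 1.24-fold in dpp, above that of 29.1%. None of the 10 spanned 2-fold, the span from which a nearest-pattern search over all genes was to be made, so no such search was made.

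A limit of 1.25-fold on the same scale was added after it was seen that none passed 2-fold. In Yki against GFP 2 genes were higher (brk, dally), against 17.2% of all genes, and 3 were lower (gbb, Dad, bi), against 15.2%. In Yki+Tai against Yki 2 were higher (gbb, brk), against 19.3%, and 0 lower, against 18.8%. In Yki+Tai-IR against Yki 0 were higher, against 12.9%, and 2 lower (salm, dally), against 10.3%. In Yki+Tai against Yki+Tai-IR 5 were higher (gbb, tkv, brk, salr, dally), against 19.7%, and 1 lower (Dad), against 21.9%. The counting interval left out 1 for 9, 10, 9 and 7 of the 10 in these comparisons, in the order given, but also for 50.7%, 59.7%, 42.7% and 61.7% of all genes of known length. The interval narrows as fragments rise. The members rested on 527 to 10476 fragments each, while the genes tested went down to a mean of 1 FPKM. These counts and shares are therefore not like for like.

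The median difference of the 10 on the log2(FPKM + 1) scale was 0.10 in Yki against GFP, beside -0.0036 over all genes. It was 0.15 in Yki+Tai against Yki, beside -0.0017, and -0.20 in Yki+Tai-IR against Yki, beside 0.0074. For Yki+Tai against Yki+Tai-IR it was 0.32, beside -0.015, with 7 genes above 0 and 3 below. These comparisons share libraries and are not independent. The order from Yki+Tai over Yki and Yki+Tai-IR to GFP, seen in 4 of the 10, was that of 4.87% of all genes, and it was noticed in these values before it was counted. The reverse order, that of Dad, was that of 6.11%.

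The other genes of the pathway were taken from a list of 32, of which 26 passed the filter. The ligand gene scw and the heparan sulfate enzyme gene sotv were listed at 0 in every library. In Yki against GFP 0 of the 26 were called higher and 2 lower, in Yki+Tai against Yki 2 higher and 0 lower, in Yki+Tai-IR against Yki 0, and in Yki+Tai against Yki+Tai-IR 3 higher and 0 lower. Over all genes the share called in either direction was 4.91%, 5.55%, 4.11% and 8.15% in these comparisons, in the order given. The receptor genes sax, put, wit and babo and the Smad and cofactor genes Med, Smox and shn were within 2-fold throughout, with log2 differences from -0.56 to 0.47.

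Extracellular regulators of BMP signalling made up the largest group of the list. All 11 that passed the filter, of 14 in the table, were higher for Yki+Tai when set against Yki, with a median log2 difference of 0.45, while 49.8% of all genes lay above 0. Of these, Sulf1 could not be separated by counting, at 1.03 times (0.948 to 1.11), and tld only just could, at 1.08 times (1.001 to 1.17). All 11 were also higher in Yki+Tai when set against Yki+Tai-IR, where the median was 0.57 and the share of all genes 48.2%. In Yki+Tai-IR against Yki 10 of the 11 were lower, with a median of -0.21, while 51.2% of all genes lay above 0. The exception was cv-2. For cv-2, and also for cv, nord, Sulf1 and Fs, the counting intervals of the levels in Yki+Tai-IR and Yki overlapped. In Yki against GFP 5 were higher and 6 lower, beside 49.4% of all genes above 0. These counts did not change after either rescaling of the libraries, by median ratio or to one FPKM sum. Over the 26 pathway genes that passed, these 11 among them, 19 lay above 0 and 7 below for Yki+Tai against Yki. For Yki+Tai against Yki+Tai-IR 23 lay above 0 and 3 below, and for Yki+Tai-IR against Yki 4 above and 22 below. The direction in the comparisons with Yki+Tai-IR was thus not particular to the extracellular regulators. Marker sums were also higher in Yki+Tai, at 195 FPKM against 108 in Yki for the 3 posterior genes, 30.2 against 4.58 for the 6 hemocyte markers, and 892 against 572 for 5 tracheal markers. Against Yki+Tai-IR, where these sums were 94.3, 5.33 and 710 FPKM, they were higher in Yki+Tai as well. The leg disc sum of Yki+Tai, 39.5 FPKM, exceeded the 4.09 FPKM of Yki but not the 128 FPKM of Yki+Tai-IR. Sums of the wing markers, the anterior genes and the myoblast markers went the other way, with Yki+Tai below Yki. The tracheal sum in GFP was 466 FPKM. Of its genes btl, for the tracheal FGF receptor, was lowest in Yki+Tai, at 1.27 FPKM, against 2.80 in Yki+Tai-IR, 2.15 in Yki and 3.47 in GFP. The part of these tissues in the regulators' values was not tested.

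Only a few of these regulators were called. The BMP-binding protein gene sog had 69.7 FPKM in Yki+Tai, 27.4 in Yki+Tai-IR, 32.3 in Yki and 25.9 in GFP. Yki+Tai was the high library, at 2.16 times Yki (2.03 to 2.29) and 2.54 times Yki+Tai-IR (2.38 to 2.73). The gene nord, for a secreted modulator of BMP signalling, had 24.7 FPKM in Yki+Tai, 11.4 in Yki+Tai-IR, 11.9 in Yki and 18.2 in GFP, and was called for Yki+Tai against Yki+Tai-IR, at 2.15 times (1.87 to 2.49). The gene cv-2, whose BMP-binding product is needed for the crossveins, had 13.6 FPKM in Yki+Tai, 9.34 in Yki+Tai-IR, 8.79 in Yki and 19.5 in GFP, and was called lower in Yki than in GFP, at 0.449 times (0.393 to 0.513). The feedback gene magu (pentagone), whose product widens the Dpp gradient and whose transcription the signal represses, had 131 FPKM in Yki+Tai, 84.2 in Yki+Tai-IR, 112 in Yki and 81.8 in GFP. This was the order of brk, although Yki+Tai-IR and GFP could not be separated in magu (1.03, 0.962 to 1.10). The same order was seen in sog, cv and tld of these regulators and, among other listed genes, in sax and put. It was thus not particular to brk and magu.

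The ligand gene daw, which signals through the Activin-type receptor Baboon, differed most. It had 8.49 FPKM in Yki+Tai, 1.88 in Yki+Tai-IR, 0.920 in Yki and 4.63 in GFP, which rest on 278 estimated fragments in Yki+Tai, 41 in Yki+Tai-IR, 23 in Yki and 98 in GFP. Its ratio was 9.23 (6.02 to 14.8) for Yki+Tai over Yki, 4.52 (3.25 to 6.44) for Yki+Tai over Yki+Tai-IR and 0.199 (0.121 to 0.316) for Yki over GFP. All 6 hemocyte markers were highest in Yki+Tai. Their sum was 30.2 FPKM in Yki+Tai, 5.33 in Yki+Tai-IR, 4.58 in Yki and 8.43 in GFP, the order of daw, which srp and Pxn kept singly and the others did not. Their part in the daw value was not tested.

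A further list held 12 transcription factor genes of the disc that Dpp is known to regulate or that act beside its targets, and all 12 passed the filter. The wing selector gene vg had 46.1 FPKM in Yki+Tai, 42.2 in Yki+Tai-IR, 53.6 in Yki and 43.95 in GFP. Yki was the high library for vg, at 1.22 times GFP (1.13 to 1.31). Of the notum factors, pnr had 7.28 FPKM in Yki+Tai, 11.6 in Yki+Tai-IR, 10.52 in Yki and 15.3 in GFP, and tup kept the same order. This was the order of Dad, although Yki+Tai-IR and Yki could not be separated by counting in either gene, nor from GFP in tup. The T-box genes Doc1, Doc2 and Doc3, which lie in one cluster and are alike in sequence, were each highest in GFP. In Doc1, however, Yki and GFP could not be separated by counting (0.830, 0.688 to 1.002). The intervals of the Doc1 levels in Yki+Tai and Yki+Tai-IR also overlapped that in GFP.

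In that list 1 gene was called in Yki against GFP, 1 in Yki+Tai against Yki, 1 in Yki+Tai-IR against Yki and 4 in Yki+Tai against Yki+Tai-IR, of 12 each time, against the same 4.91%, 5.55%, 4.11% and 8.15% of all genes. The homeobox gene dve had 99.3 FPKM in Yki+Tai, 32.9 in Yki+Tai-IR, 48.7 in Yki and 36.1 in GFP, with Yki+Tai at 3.02 times Yki+Tai-IR (2.83 to 3.23). The cofactor gene nab had 63.6 FPKM in Yki+Tai, 30.8 in Yki+Tai-IR, 35.1 in Yki and 21.7 in GFP. The gene kni, which acts in vein formation downstream of the Spalt factors, had 25.8 FPKM in Yki+Tai, 12.2 in Yki+Tai-IR, 24.0 in Yki and 17.8 in GFP. In Yki+Tai each of these was called higher against Yki+Tai-IR. The homeobox gene al, which is also expressed in the leg disc, had 15.3 FPKM in Yki+Tai, 34.4 in Yki+Tai-IR, 16.6 in Yki and 57.5 in GFP. It was called lower in Yki than in GFP, at 0.289 times (0.249 to 0.333), and the libraries high in al were those high in leg disc markers, whose part in its values was not tested.

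**Figure D4:**
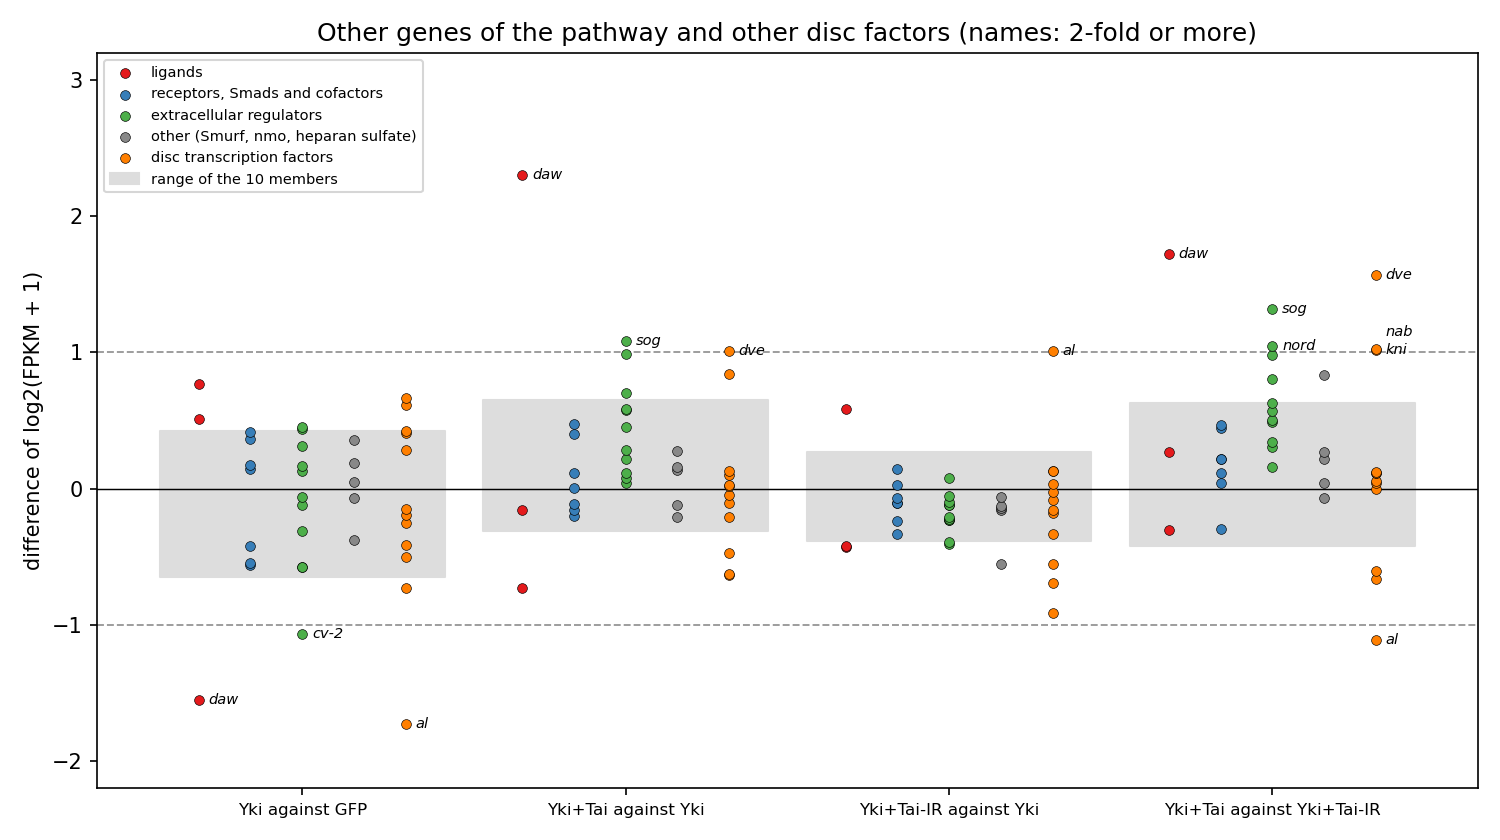
Difference of log2(FPKM + 1) for the 26 other pathway genes and 12 disc transcription factors that passed the filter, in the 4 comparisons, coloured by role, with names at 2-fold or more (dashed lines). The grey band is the range of the 10 members. All extracellular regulators (green) lie above 0 in Yki+Tai against Yki and in Yki+Tai against Yki+Tai-IR.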

How the data were processed

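The authors deposited FPKM for 13990 genes in 4 libraries. The submitters' processing notes name Cuffdiff 2.2.1, TopHat2 2.0.12, CASAVA 1.4 and the dm6 build, while annotation and options were not given in the sources used here. Per the labels' protocols, 4 µg of ribosomal-RNA-depleted RNA went into each library, with a kit that does not mark strand. Here symbols were matched to Ensembl release 115 (13734 matched, 3205 through an older symbol in the RefSeq gene table). Fragments were estimated from the steps of low FPKM values of single-transcript genes: 72.1% to 76.4% came within 0.08 of a whole number after 220 nt was taken off the transcript length, against 16% by chance. FPKM of other genes became fragments through the median transcript length. Ratios carry a Clopper-Pearson interval and levels an exact Poisson one, for counting error only. Genes were called at a difference of 1 in log2(FPKM + 1), which understates the change of low genes, and 314 small-RNA genes were left out. The call rule and intervals were tested on simulated data. Named genes were the 10 members, called genes of the lists, en, inv, hh, ci, ptc, yki, tai and marker lists; put, dlp, magu, vg, pnr, tup, kn, btl, the Doc genes and genes at 0 were named after their values were seen. The members and lists were chosen with earlier results of these data known. Alternatives covered the pseudocount, the filter, 2 rescalings and small-RNA genes. Computation used pandas 2.3.3, scipy 1.17.1, numpy 2.4.6 and Python 3.11.15, and plots matplotlib 3.10.9.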

Additional observations from a re-analysis of the deposited data

How the results depend on the processing

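No paired analysis was possible because each genotype has 1 library. The 40 differences of the 10 genes (4 comparisons each) were recomputed under 7 alternatives, giving 280 values, of which 4 left their counting interval and 0 reached 2-fold. These 4 were tkv in 3 comparisons and dally in 1, all after rescaling to the same FPKM sum. That rescaling also changed the sign of 2 differences, the larger of them 0.037 in size, salr in Yki against GFP and dpp in Yki+Tai against Yki+Tai-IR. With a limit of 1.25-fold, 5 members were called in Yki against GFP, 2 in Yki+Tai against Yki, 2 in Yki+Tai-IR against Yki and 6 in Yki+Tai against Yki+Tai-IR. By a counting interval that leaves out 1 the counts were 9 in Yki against GFP, 10 in Yki+Tai against Yki, 9 in Yki+Tai-IR against Yki and 7 in Yki+Tai against Yki+Tai-IR. Of the other pathway genes, 0 instead of 2 were called in Yki against GFP with a pseudocount of 5 and 1 with a filter of mean 5 FPKM, 1 instead of 2 in Yki+Tai against Yki with that filter, and 1 instead of 3 in Yki+Tai against Yki+Tai-IR with a pseudocount of 5 and 2 with the filter. Other settings gave more, 3 in Yki+Tai against Yki with a pseudocount of 0.1 or median-ratio rescaling, and 4 in Yki+Tai against Yki+Tai-IR with a pseudocount of 0.1 or the same FPKM sum. Over all genes the 2-fold calls depended on low values. In Yki against GFP 145 were higher and 238 lower, against 235 and 346 with a pseudocount of 0.1, 58 and 96 with 5, and 92 and 129 with the filter of mean 5 FPKM. In Yki+Tai against Yki 269 were higher and 164 lower, against 129 and 65 with a pseudocount of 5 and 134 and 111 with that filter. In Yki+Tai-IR against Yki 249 were higher and 72 lower, against 353 and 150 with a pseudocount of 0.1, 89 and 27 with 5, and 99 and 38 with that filter. In Yki+Tai against Yki+Tai-IR 290 were higher and 346 lower, against 154 and 149 with a pseudocount of 5 and 174 and 200 with that filter. The limit is the single library per genotype, since a difference between pools of discs cannot be told from one between genotypes.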

Other observations

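The gene kn (collier), a Hedgehog target expressed in anterior cells along the compartment boundary, differed more than any of the 10 genes. It had 24.1 FPKM in Yki+Tai, 3.34 in Yki+Tai-IR, 15.03 in Yki and 7.49 in GFP. The ratio was 7.21 (5.80 to 9.05) for Yki+Tai over Yki+Tai-IR, 0.222 (0.175 to 0.279) for Yki+Tai-IR over Yki and 2.01 (1.69 to 2.38) for Yki over GFP. The Hedgehog receptor gene ptc, which is expressed in the same anterior stripe as dpp, did not share this order, at 19.9 FPKM in Yki+Tai, 32.3 in Yki+Tai-IR, 21.5 in Yki and 54.0 in GFP. The level of dpp, at 16.9 to 21.1 FPKM, spanned less than either.

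The Hox gene Ubx, which marks the haltere disc that lies beside the wing disc and is also expressed in the peripodial layer, had 77.7 FPKM in Yki+Tai, 96.7 in Yki+Tai-IR, 121 in Yki and 66.0 in GFP. Ubx was highest in the library in which the leg disc markers were lowest.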
